A study of Mus musculus with 2 samples.

Results

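The genes described here are 10 genes of the Notch pathway in the mouse tongue: the receptors *Notch1*, *Notch2* and *Notch3*, the ligands *Jag1*, *Jag2*, *Dll1* and *Dll4*, the receptor-modifying enzyme *Lfng*, and the targets *Hes1* and *Hey1*. They were taken by gene symbol from a table of 18498 rows, of which 18043 carried a symbol, and all 10 had a row. The study sequenced poly(A) RNA of circumvallate papillae (CvP), the taste papilla at the back of the tongue that is rich in taste buds, and of tongue epithelium without papillae (Epi). Both tissues came from C57BL/6J mice aged 12 to 30 weeks, with no genetic change or treatment named. The methods name male sex for the RT-PCR mice and normal chow for the animals in general, and their sequencing section names neither. RNA of at least 20 animals was pooled for each tissue and 1 library was sequenced from each pool, so every comparison is between 2 libraries and no p-value was calculated. For the CvP tissue used in RT-PCR, the methods state that epithelium around the taste buds was included, and for the sequenced CvP this was not stated. The comparison of the levels in the 2 tissues addresses which genes are expressed more in taste tissue than in the epithelium around it.

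Notch receptors are membrane proteins that are activated by Jagged and Delta-like ligands on neighbouring cells. After binding, the receptor is cut by ADAM proteases and then by γ-secretase, and the released intracellular domain joins the DNA-binding protein RBPJ and Mastermind-like coactivators to switch on targets such as the Hes and Hey repressors. In stratified squamous epithelia the pathway takes part in the step from basal to suprabasal cells, and its components have also been described in taste buds.

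RBPJ recognises a short DNA word, TGGGAA, and the promoters of genes of the pathway were therefore searched for it. The windows were those of the RefSeq promoter table on GRCm38.p6, from 250 bases before to 50 bases after each start, and they held 8 of the 10 genes, without *Hes1* and *Hey1*. The word was searched as TGGGAA and as its reverse complement TTCCCA. It was in a window of 1 of these 8 genes (*Lfng*), where 28.3% of all genes of the promoter table held it in a window. Of all 32851 single promoters, 25.6% held it. The longer word GTGGGAA, which contains the shorter one, was in 6.38% of all promoters. Counted by gene, 13 of 52 other genes of the pathway lists held TGGGAA in at least 1 of their windows, where 28.3% of the 27025 genes of the table did. *Lfng*, *Rbpj*, *Hes5* and *Hey2* held it on both strands of a window, as did 1.81% of all promoters. The 250 bases before the start are printed for *Lfng*, the single gene of the 8 with the word, and for comparison for *Rbpj*, which encodes the DNA-binding factor itself, and *Hes5*, a target gene of the Hes family. Capitals mark the word, read 5′ to 3′ on the strand of the gene as TGGGAA or TTCCCA.
*Lfng*, chr5:140607091-140607340, plus strand: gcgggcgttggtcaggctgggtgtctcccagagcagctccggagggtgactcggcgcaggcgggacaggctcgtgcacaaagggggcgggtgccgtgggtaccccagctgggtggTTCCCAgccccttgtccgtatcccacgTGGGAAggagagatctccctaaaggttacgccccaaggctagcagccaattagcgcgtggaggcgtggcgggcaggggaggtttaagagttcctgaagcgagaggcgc
*Rbpj*, chr5:53590096-53590345, plus strand: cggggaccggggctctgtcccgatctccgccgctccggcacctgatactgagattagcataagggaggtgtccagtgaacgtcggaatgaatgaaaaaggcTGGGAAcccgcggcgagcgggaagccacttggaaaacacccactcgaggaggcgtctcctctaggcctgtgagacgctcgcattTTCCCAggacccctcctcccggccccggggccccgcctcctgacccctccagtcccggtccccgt
*Hes5*, chr4:154960673-154960922, plus strand: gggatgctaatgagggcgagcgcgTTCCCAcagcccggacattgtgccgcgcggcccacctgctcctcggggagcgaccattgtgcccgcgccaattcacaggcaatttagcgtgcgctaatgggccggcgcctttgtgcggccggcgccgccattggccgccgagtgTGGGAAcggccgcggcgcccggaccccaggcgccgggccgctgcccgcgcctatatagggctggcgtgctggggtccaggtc
In *Lfng* the word starts 108 bases before the start on the gene's strand and 135 bases before it on the opposite strand. The corresponding distances are 149 and 65 bases in *Rbpj*, and 82 and 226 bases in *Hes5*. These matches describe letters in a window. No binding was measured.

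The values are RPKM, read densities corrected for exon length and for the mapped reads of the library, as the authors deposited them. From the step between the lowest values in 163 rows of 0.1 kb, the libraries held about 28385800 (CvP) and 27960200 (Epi) mapped reads. With these depths 98.2% and 98.4% of low values in rows of up to 0.5 kb were whole reads to within 0.15 reads. Those rows include the rows of 0.1 kb that gave the step, so these shares are not an independent check. These depths gave estimated reads for each gene, and the intervals printed after the ratios are 95% exact (Clopper-Pearson) intervals of these reads, for counting error alone and not for the spread between animals. Counts over genes refer to the 12549 rows that reached 1 RPKM in at least 1 library. In these the median CvP/Epi ratio was 1.43 (log2 0.51), so a ratio a little above 1 was usual in this table. In bulk tissue, fewer cells of a type and less RNA per cell cannot be told apart.

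The tissue labels were compared with marker genes. All 8 taste markers were higher in the CvP library, with a summed RPKM of 481.51 against 6.18, and the highest was *Gnat3*, the taste G protein, at 127.11 against 0.03. Of the 6 basal keratinocyte markers, led by *Krt5*, 4 were higher in the CvP with a median ratio of 1.36, while their sum was lower there, at 2557 RPKM against 3345, with *Krt14* at 294.83 and 1140.2. Of the 6 suprabasal markers, led by *Krt13*, 2 were higher in the CvP, and the sum was 29532 and 70947 RPKM. The 4 skeletal muscle markers, led by *Acta1*, summed to 2.52 and 38.5 RPKM, and the 3 salivary gland markers with a row, led by *Lipf*, to 2.81 and 401.74. *Dcpp1* of the salivary gland list was at 0 in the CvP.

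Of the 10 genes, *Hey1* differed most between the tissues, with 10.79 RPKM in the CvP against 0.23 in the Epi. *Lfng* was 2.82-fold higher in the CvP, while *Notch1*, *Notch2*, *Notch3* and *Jag1*, which were abundant in both tissues, had ratios between 1.03 and 1.34, which fell on either side of 1 under other scalings. All 9 genes that reached 1 RPKM in a library had a ratio above 1, where 78.1% of the rows of the table did. After division by the ratio of upper quartiles 5 of the 9 stayed above 1, and the share of all rows was not counted on that scale. The median ratio of the 9 as deposited was 1.58 (log2 0.66). The ratio was above 2 in 2 of the 9 (*Lfng* and *Hey1*), against 28.2% of the rows, and under 0.5 in 0 of the 9, against 3.75%. *Dll4* stayed under 1 RPKM in both libraries and is outside these counts, and *Hey1* entered them through the CvP alone. *Hey1* was the 1 gene of the 10 with a CvP RPKM above 10 and a ratio above 3, the criteria of the study, which 2.35% of all rows met as counted here from the deposited values. A CvP RPKM above 10 was reached by 8 of the 10 genes and by 29.8% of all rows.

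**Figure D1:**
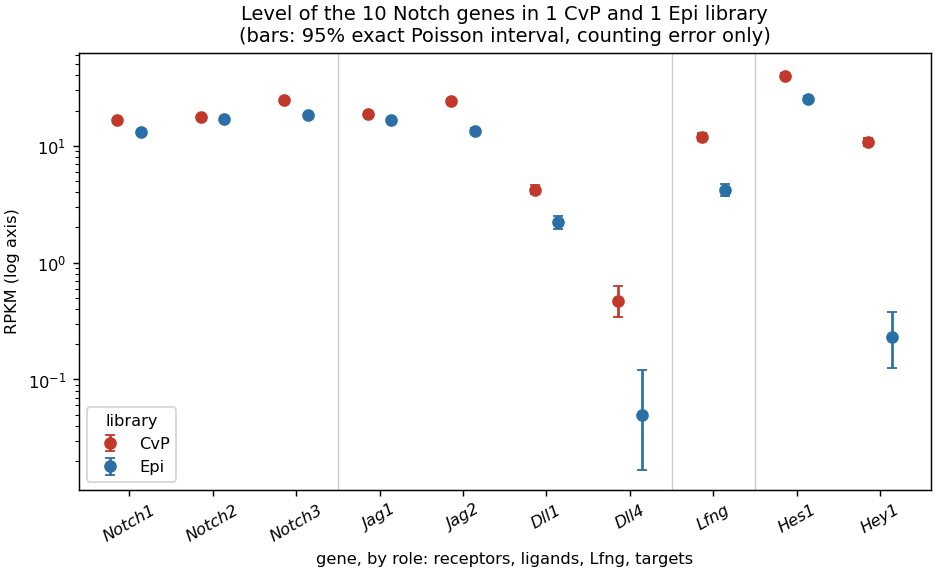
RPKM (log axis) of the 10 genes in the CvP and Epi libraries, 1 point per library. Bars are 95% exact Poisson intervals of the estimated reads and cover counting error only. On this scale *Hes1* is the highest in both libraries, and *Hey1* has the widest gap, from 10.79 in the CvP to 0.23 in the Epi.

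Most of the 10 genes were well expressed on the RPKM scale. On this scale *Hes1* was the highest in both libraries and lay above 92.8% of the rows in the CvP against 89.6% in the Epi. The CvP order of levels was *Hes1*, *Notch3*, *Jag2*, *Jag1*, *Notch2*, *Notch1*, *Lfng*, *Hey1*, *Dll1* and *Dll4*. Within that order the counting intervals of *Notch3* and *Jag2*, of *Jag1* and *Notch2*, and of *Lfng* and *Hey1* overlapped. In the Epi the order was *Hes1*, *Notch3*, *Notch2*, *Jag1*, *Jag2*, *Notch1*, *Lfng*, *Dll1*, *Hey1* and *Dll4*, with overlap between *Notch2* and *Jag1* and between *Jag2* and *Notch1*. *Hey1* thus stood above *Dll1* in the CvP and below it in the Epi. The order depended on gene length: with reads expressed per kb of transcript, *Jag2* was the highest in both libraries, at 116 and 64.9, above *Hes1* at 86.8 and 54.9, and *Notch1* (22.4) passed *Notch2* (18.9) in the CvP. *Hey1* lay above 71.7% of the rows in the CvP and above 30.8% in the Epi.

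The receptors were present in both tissues at similar levels. *Notch1* (chr2:26313422-26359342 on NCBI37/mm9, minus strand, 34 exons in the GENCODE M1 transcript Notch1-001) stood at 16.48 RPKM in CvP tissue against 13.21 in Epi tissue, a CvP/Epi ratio of 1.25 (interval 1.19 to 1.30). *Notch2* (chr3:97817461-97954290, plus strand, 34 exons) stood at 17.62 and 17.12, a ratio of 1.03 (0.990 to 1.07). *Notch3* (chr17:32257838-32303797, minus strand, 33 exons) stood at 24.53 and 18.30, a ratio of 1.34 (1.29 to 1.40). All 3 receptors were thus as high in the Epi as in the CvP to within 1.34-fold, and their estimated reads ran from 3504 to 5601 per library. Divided by the median ratio of the 500 rows nearest in level, which was 1.22, 1.19 and 1.18 for the 3 genes, the ratios became 1.03 for *Notch1*, 0.867 for *Notch2* and 1.14 for *Notch3*. The direction of all 3 turned with the scaling: divided by the ratio of upper quartiles the values were 0.923, 0.761 and 0.991. *Notch4*, the remaining mammalian receptor and known from blood vessels, was far lower in level and stood at 2.07 RPKM in the CvP against 0.02 in the Epi. That is about 387 and 4 reads and a ratio of 103.5 (36.9 to 352), the highest ratio among the receptors.

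A ratio of ratios does not change when 1 factor is applied to a whole library, but it does change when each gene is divided by its own local median ratio. In 9 such comparisons of gene pairs, each with a 95% interval not adjusted for their number, the CvP/Epi ratio of *Notch3* exceeded that of *Notch2* 1.30-fold (1.23 to 1.38). The ratio of *Notch1* exceeded that of *Notch2* 1.21-fold (1.14 to 1.29), and that of *Notch3* exceeded that of *Notch1* 1.07-fold (1.01 to 1.14). All 3 intervals stayed above 1 after division by the local median ratios. *Notch2* made up 29.0% of the summed receptor RPKM in the CvP against 35.2% in the Epi. The share of *Notch3* was 40.4% and 37.6%, that of *Notch1* 27.1% and 27.2%, and that of *Notch4* 3.41% and 0.0411%. The sum itself was 60.7 RPKM in the CvP against 48.65 in the Epi, a ratio of 1.25, so most receptor RNA in both tissues came from *Notch1* to *Notch3*.

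Markers of pericytes and smooth muscle, cells that express *Notch3* in vessel walls, were low. The 7 markers summed to 3.22 RPKM in the CvP against 3.86 in the Epi, 1 of the 7 was higher in the CvP, and the highest was *Tagln* in the CvP (1.75 and 1.22) and *Cspg4* in the Epi (1.74). *Rgs5* and *Cnn1* were at 0 in the CvP, and *Pdgfrb* was at 0.01 and 0.04. *Notch3* itself stood at 24.53 and 18.3 RPKM, and the part of pericytes and smooth muscle in its level was not tested.

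**Figure D2:**
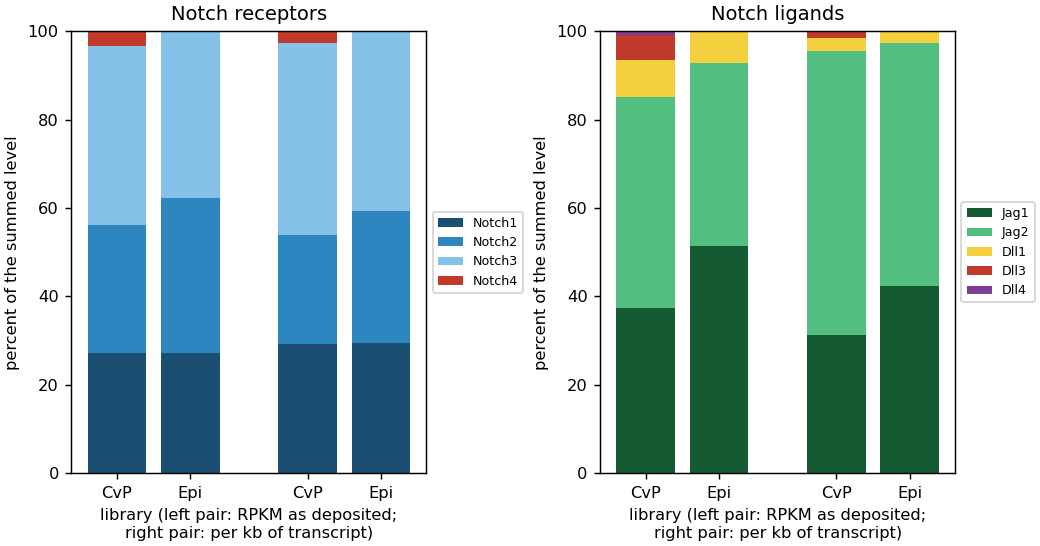
Share (percent of the summed level) of each Notch receptor (left panel) and ligand (right panel) in the CvP and Epi libraries, as stacked bars from 0 to 100, with RPKM as deposited in the left pair of bars and per kb of transcript in the right pair. On the deposited scale *Notch3* is the largest receptor share in both libraries, and *Jag1* makes up 37.4% of the ligands in the CvP against 51.3% in the Epi.

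Among the ligands, the Jagged genes were the most abundant in both tissues. *Jag1* (chr2:136907187-136942256, minus strand, 26 exons) stood at 18.75 RPKM in the CvP against 16.55 in the Epi. Its ratio was 1.13 (1.07 to 1.19) as deposited and 0.962 after division by the local median ratio, so its direction depended on the scaling. *Jag2* (chr12:114146801-114167706, minus strand, 26 exons) stood at 24.02 and 13.40 RPKM with a ratio of 1.79 (1.68 to 1.91). It stayed above 1 after division by the local median, at 1.5. The CvP/Epi ratio of *Jag2* exceeded that of *Jag1* 1.58-fold (1.46 to 1.72), or 1.56-fold (1.44 to 1.70) after division by the local medians. On the deposited scale *Jag2* was the higher of the pair in the CvP and *Jag1* in the Epi.

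That order within the Epi depended on the gene lengths used. The table lists 19.635 kb for *Jag2*, 4.84 times its longest coding transcript of 4054 bases and 93.9% of the 20.906 kb from its start to its end, and 16.903 kb for *Jag1*, 3.01 times its transcript of 5612 bases. Assuming that all reads came from the transcript, *Jag2* was the higher in both libraries, with 64.2% of the ligand sum in the CvP against 55.1% in the Epi, while *Jag1* made up 31.2% and 42.3%. The same length enters both libraries, so the CvP/Epi ratios do not change with it.

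*Dll1* and *Dll4* are Delta-like ligands, the second best known from sprouting vessels. *Dll1* (chr17:15504318-15512787, minus strand, 11 exons) stood at 4.22 RPKM in the CvP against 2.21 in the Epi, a ratio of 1.91 (1.62 to 2.26). Rows of similar level had a median ratio of 1.72, and the ratio divided by it was 1.11. The ratio of *Dll1* relative to that of *Jag2* was 1.07 (0.894 to 1.28), an interval that includes 1, and it turned to 0.737 (0.618 to 0.883) after division by the local medians. *Dll4* (chr2:119151520-119161402, plus strand, 11 exons) stood at 0.47 RPKM in the CvP against 0.05 in the Epi, about 46 and 5 reads. Its ratio was 9.40 (3.61 to 29.2), and 4.92 (1.85 to 15.5) relative to *Dll1*, which became 2.40 (0.903 to 7.55) after division by the local medians. The *Dll4* level was thus low in both tissues, and with a pseudocount of 1 its ratio was 1.40. *Dll3*, a divergent ligand that acts inside the cell, was at 2.74 RPKM in the CvP against 0.04 in the Epi, about 168 and 2 reads, a ratio of 68.5 (22.6 to 689). The 5 ligands summed to 50.2 RPKM in the CvP against 32.25 in the Epi, a ratio of 1.56.

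Some exons are shared with noncoding genes on the opposite strand, and the library was not stated to keep strand, so reads of the genes of such a pair cannot be told apart. *Dll1* shares 867 of its 4219 annotated exon bases with *A930024N18Rik*, and *Dll4* shares 214 of 3852 with *Gm14207*, which had its own row at 0.62 RPKM in the CvP against 0.04 in the Epi. *Notch1* shares 1068 and 414 of 14232 bases with *0610009E02Rik* and *Gm13568*, and *Notch3* shares 488 of 8044 with *Gm17276*.

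*Lfng* encodes a glycosyltransferase that adds a sugar to Notch receptors in the Golgi and so changes which ligands they respond to. *Lfng* (chr5:141083295-141091499 on NCBI37/mm9, plus strand, 8 exons), whose promoter is printed above, stood at 11.88 RPKM in the CvP against 4.21 in the Epi. The ratio of 2.82 (2.45 to 3.25) was exceeded by 17.3% of the rows and was still 2.0 after division by the local median ratio. *Rfng*, the radical fringe gene, stood at 19.16 and 16.17, a ratio of 1.18 (1.09 to 1.29), and *Mfng*, the manic fringe gene, at 1.00 and 0.08, a ratio of 12.5 (4.71 to 48.8). The ratio of *Lfng* exceeded that of *Rfng* 2.38-fold (2.02 to 2.81), and the ratio of *Mfng*, from about 52 and 4 reads, exceeded that of *Lfng* 4.43-fold (1.65 to 17.4), or 2.16-fold (0.804 to 8.51) after division by the local medians. *Lfng* made up 37.1% of the fringe RPKM in the CvP against 20.6% in the Epi, while *Rfng* was the largest share in both, at 59.8% and 79.0%.

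*Hes1* and *Hey1* encode basic helix-loop-helix repressors that Notch activity induces in many tissues. *Hes1* (chr16:30065443-30067882, plus strand, 4 exons) stood at 39.94 RPKM in the CvP against 25.27 in the Epi, a ratio of 1.58 (1.46 to 1.71) that 42% of the rows exceeded. Rows of its level had a median ratio of 1.09, and the ratio divided by it was 1.45. The table lists 3.189 kb for *Hes1*, more than the 2.44 kb from its start to its end, so part of its exon model lies outside these coordinates. *Hey1* (chr3:8663359-8667038, minus strand, 5 exons) stood at 10.79 and 0.23, about 675 and 14 reads, a ratio of 46.9 (28.1 to 87.3). It was exceeded by 3.76% of the rows, and it was 23.8 after division by the local median ratio and 9.59 with a pseudocount of 1. The ratio of *Hey1* exceeded that of *Hes1* 29.7-fold (17.6 to 55.5), or 16.5-fold (9.78 to 30.8) after division by the local medians, the widest gap among the 9 pairs on both scales.

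**Figure D3:**
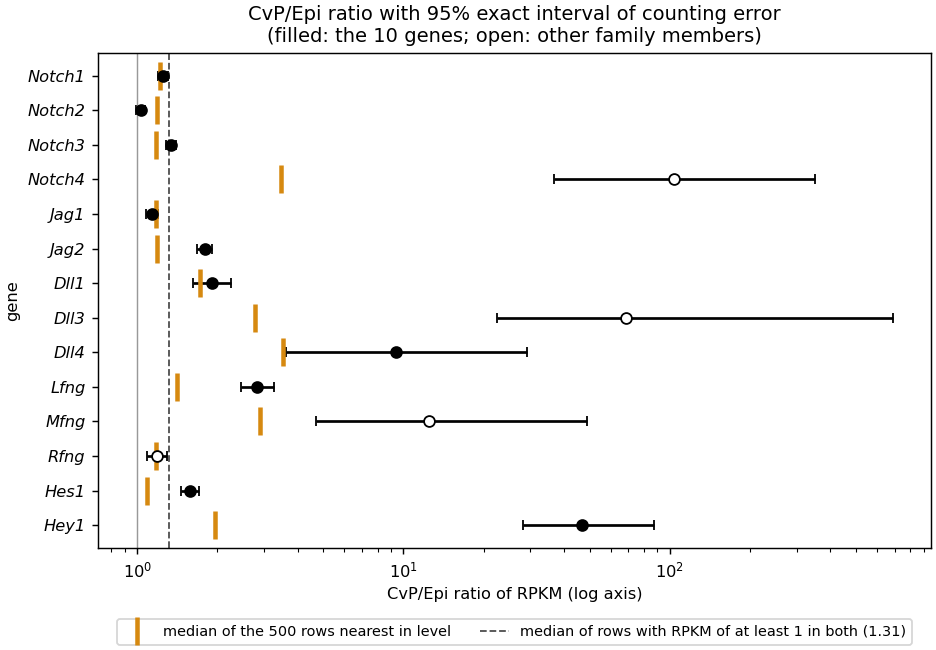
CvP/Epi ratio of RPKM (log axis) for the 10 genes (filled points) and for *Notch4*, *Dll3*, *Mfng* and *Rfng* (open points), with 95% exact intervals of counting error. Orange ticks are the median ratio of the 500 rows nearest in level, and the dashed line is the median of rows with at least 1 RPKM in both libraries (1.31). *Hey1* (46.9) lies far above its local median of 1.97, and *Notch2* and *Jag1* lie below theirs of 1.19 and 1.18.

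The other genes of the target list, of the Hes and Hey families and *Nrarp*, ranged from genes at or near 0 to well expressed genes higher in either tissue. Whether each gene of the list is induced by Notch was not tested. *Hes6*, a family member known to oppose Hes1, stood at 48.0 RPKM in the CvP against 5.80 in the Epi, a ratio of 8.28 (7.2 to 9.60). *Heyl*, a relative of *Hey1*, was at 2.36 and 0.02, about 304 and 3 reads, a ratio of 118 (33.8 to 487). *Nrarp*, a target that dampens Notch signalling, went the other way at 23.98 and 39.04 and a ratio of 0.614 (0.578 to 0.652), or 0.741 with RPKM brought to a common sum. *Hes3*, *Hes5* and *Hey2* had at most 3 estimated reads in each library, so a difference was not detectable at this depth. *Hes2* was at 0.14 and 0.49 RPKM (10 and 35 reads, ratio 0.286, interval 0.124 to 0.581). *Hes7* was at 0.33 and 0 (9 and 0 reads), 2.96-fold against a floor of 3 reads, and the lower limit of its interval was 1.94. Of the 10 genes in this list, *Hes1* and *Hey1* included, 5 reached an RPKM of 1, and 3 of these were past 2-fold in the CvP, against 28.2% of all rows. In 2 of the 3 (*Hey1* and *Heyl*) the Epi RPKM was under 1.

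Some endothelial markers were also higher in the CvP, as were *Notch4*, *Dll4*, *Hey1* and *Heyl*, genes that are also expressed in vessels. Of 9 such markers 7 had a row, 4 of the 7 were higher in the CvP, the other 3 were higher in the Epi, and they summed to 7.56 RPKM in the CvP against 0.77 in the Epi. Most of the sum was *Vwf* (4.45 and 0.09) and *Tek* (2.49 and 0.07). *Pecam1* (0.28 and 0.12) and *Kdr* (0.04 and 0.02) were near 0 in both libraries. So were *Cdh5* (0.02 and 0.06) and *Tie1* (0.03 and 0.14), which were higher in the Epi. Of the other lists, the 6 immune markers summed to 79.02 and 26.05 RPKM, led by *Cd74* at 60.56 and 19.9, with *Cd3e* at 0 in the Epi. The 6 fibroblast markers summed to 27.52 and 128.48, nearly all of it *Dcn* at 26.07 and 127.62, while *Pdgfra* was higher in the CvP at 1.30 and 0.07 and *Lum* was at 0 there. The part of taste, immune and other cells in the differences of the Notch genes was not tested.

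The wider pathway was described with lists of 49 further genes, of which 42 had an RPKM of at least 1 in a library. Of the 42, 37 had a ratio above 1, where 78.1% of all rows did. Past 2-fold in the CvP were 15 (35.7%), against 28.2% of all rows, and past 2-fold in the Epi were 0, against 3.75%. The median ratio was 1.73, where that of all rows tested was 1.43. In 10 of the 15 the Epi RPKM was under 1, so that these genes entered the count through the CvP alone, and the same held for 49.5% of all rows past 2-fold. Among the 32 that reached 1 RPKM in both libraries 5 were past 2-fold, where 17.3% of such rows were. Rows that the table itself places in the KEGG Notch pathway gave a lower share: without the 10 genes, 10 of 34 (29.4%) were past 2-fold in the CvP, close to the 28.2% of all rows.

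**Figure D4:**
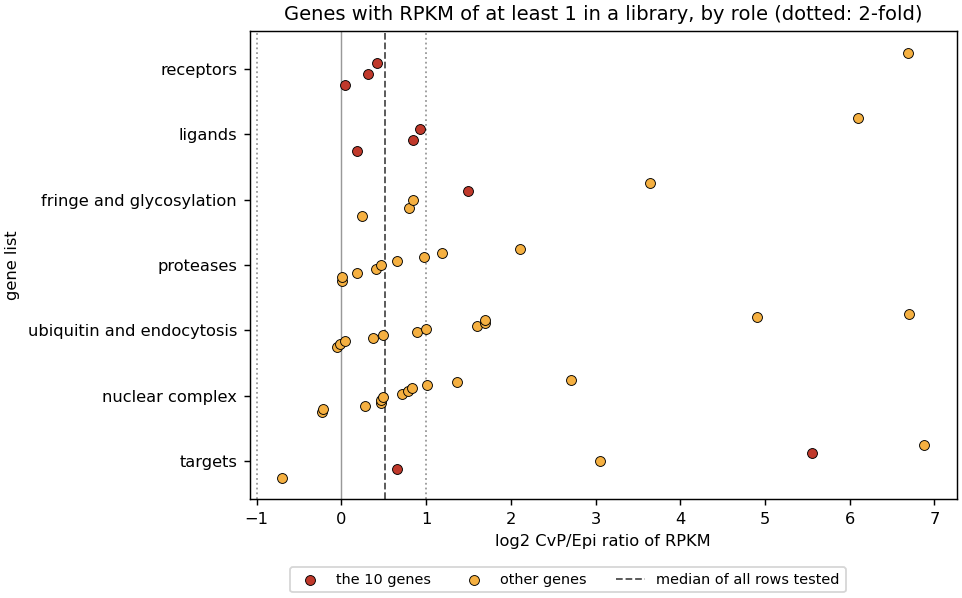
CvP/Epi ratio (log2 axis) of each gene of the pathway lists with an RPKM of at least 1 in a library, by role, with the 10 genes in red, the others in orange and the median of all rows tested (log2 0.51) as a dashed line. No gene lies past 2-fold towards the Epi (dotted line at -1), where 3.75% of all rows tested lie. Each role has at least 1 gene past 2-fold towards the CvP, where 28.2% of all rows tested lie.

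The proteases that cut the receptor were expressed in both tissues. *Adam10*, the main enzyme of the first ligand-induced cut, stood at 40.12 RPKM in the CvP against 17.64 in the Epi, a ratio of 2.27 (2.17 to 2.39). Of the γ-secretase subunits, *Psen2*, which is catalytic, stood at 3.74 and 0.87, a ratio of 4.30 (3.14 to 5.99). *Ncstn* had a ratio of 1.96, while *Psenen* and *Aph1a* were at 1.00 and 1.01. Subunits of the same enzyme complex thus differed in their CvP/Epi ratio. Of 9 protease genes with an RPKM of at least 1, 2 were past 2-fold, *Psen2* with an Epi RPKM under 1, against 28.2% of all rows. The median ratio was 1.38.

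Among ubiquitin ligases and endocytic regulators, 5 of 12 genes were past 2-fold in the CvP, against 28.2% of all rows, and the median ratio was 1.93. In 3 of the 5 (*Neurl1a*, *Neurl1b* and *Dtx4*) the Epi RPKM was under 1. *Neurl1a*, a Neuralized ligase of the kind that promotes ligand uptake, stood at 4.16 RPKM in the CvP against 0.04 in the Epi, a ratio of 104.0 (41.2 to 299). Its relative *Neurl1b* was at 1.00 and 0.31, a ratio of 3.23 (2.35 to 4.44). The Deltex genes were not alike, and whether each of them acts on Notch was not tested. *Dtx4* had a ratio of 30.0 (15.6 to 61.2) from 1.80 and 0.06 RPKM. *Dtx3* had a ratio of 3.25 (2.76 to 3.85) from 11.02 and 3.39, and *Dtx3l* of 3.03 (2.69 to 3.43) from 7.4 and 2.44, while *Dtx2* was at 0.987. *Numb*, an inhibitor of Notch and the highest of this list, stood at 22.67 and 23.47, a ratio of 0.966 (0.911 to 1.02) with 1 inside its interval.

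The 12 nuclear genes, which form or modify the complex at the target genes, had ratios from 0.851 to 6.55. *Rbpj* stood at 6.77 RPKM in the CvP against 3.94 in the Epi, a ratio of 1.72 (1.56 to 1.90). Of the Mastermind-like coactivators, *Maml2* was higher in the CvP at 2.19 and 0.85, a ratio of 2.58 (2.11 to 3.15), and *Maml3* stood at 4.34 and 5.10, a ratio of 0.851 (0.773 to 0.937) that became 1.03 with RPKM brought to a common sum. The Groucho-type corepressors, which work with Hes proteins, were not alike. *Tle2* had a ratio of 6.55 (5.05 to 8.62) from 5.63 and 0.86, *Tle4* of 2.01 (1.82 to 2.21) from 10.18 and 5.07, and *Tle3* of 0.860 (0.818 to 0.904) from 22.37 and 26.01, which became 1.04 with a common sum. The corepressor gene *Ctbp1* was the highest of the nuclear list in the CvP, at 36.72 and 22.28 and a ratio of 1.65, and *Tle3* was the highest in the Epi. Of the 12 nuclear genes 3 were past 2-fold, against 28.2% of all rows, and in 2 of the 3 (*Maml2* and *Tle2*) the Epi RPKM was under 1. The median ratio was 1.52, where that of all rows tested was 1.43.

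**Figure D5:**
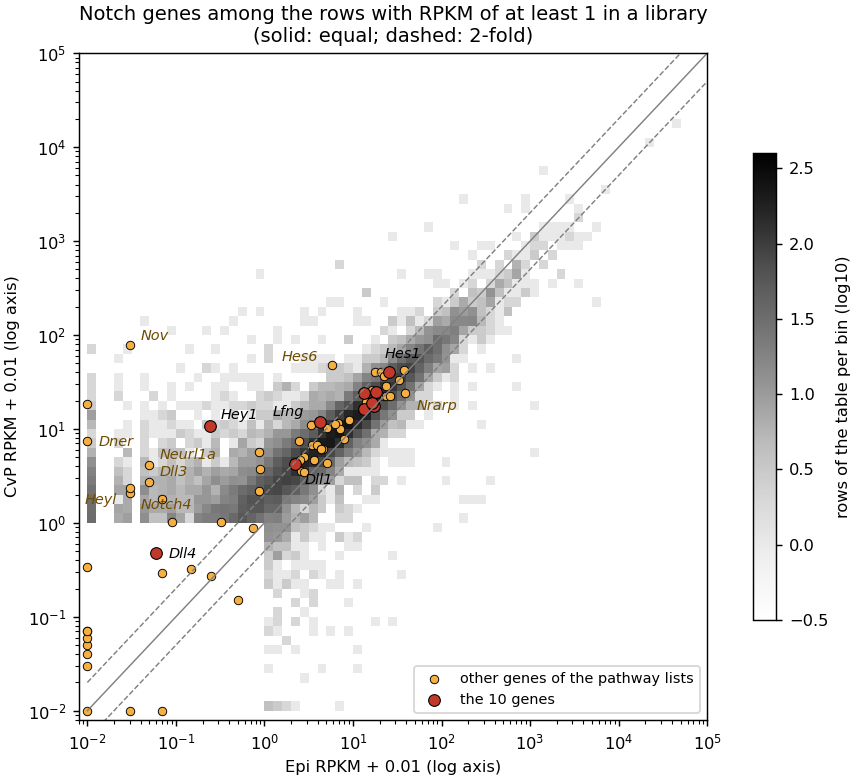
RPKM in the CvP against the Epi (log axes, 0.01 added) for the table's rows with an RPKM of at least 1 in a library (grey, by number of rows per bin), the 10 genes (red) and the other pathway genes with a row (orange, also those under 1). Most of the 10 genes lie in the dense band of rows near equality, and *Hey1* lies left of it. *Dll4*, under 1 RPKM in both libraries, lies where no grey rows are drawn, so its place cannot be compared with the band.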

How the data were processed

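Sequencing was done on 1 library each of CvP and Epi RNA. Single-end 75 bp reads were mapped by the authors to NCBI37/mm9 with Bowtie (0.12.7 in the submitters' processing notes), and the deposited values are RPKM from ERANGE with a gene length per row in kb. ERANGE options, the treatment of reads with several matches and the origin of the lengths are not given in the sources used here. The authors' ratio column was not used.

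CvP/Epi ratios were calculated from the deposited RPKM with no pseudocount. Reads were estimated from RPKM, depth and a length, either the listed length or, if shorter, that of the longest GENCODE M1 coding transcript. In rows of 0.5 to 1 kb listed as longer than their transcript, the listed length gave whole reads for 82.4% of 17 CvP and 100% of 18 Epi values, against 41.2% and 38.9% with the transcript, so the shorter length can understate reads and widen intervals. Ratios of ratios have exact conditional intervals. A floor of 3 reads was used for values of 0.

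The 10 genes and all lists were chosen with earlier results of these data known. Named were the 10 genes, pathway genes past 2-fold, the highest gene of each list and markers at 0, of which some genes are not reported here. *Rbpj*, *Nrarp*, *Ncstn*, *Psenen*, *Aph1a*, *Dtx2*, *Maml3*, *Tle3*, *Hes2*, *Hes3*, *Hes5*, *Hes7*, *Hey2*, *Dlk2*, *Pecam1*, *Cdh5*, *Kdr*, *Tie1*, *Tek*, *Pdgfrb*, *Pdgfra*, *Krt14*, *Vwf* and the antisense genes were named after their values were seen. The steps were tested on simulated data. Alternatives were other scalings, pseudocounts, filters, fold limits and lengths. Calculations used Python 3.11.15, numpy 2.4.6, pandas 2.3.3, scipy 1.17.1 and matplotlib 3.10.9.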

Additional observations from a re-analysis of the deposited data

How the results depend on the processing

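The median log2 ratio of the 9 genes was 0.66 as deposited, 0.27 after division by the median ratio of rows with an RPKM of at least 1 in both libraries (1.31), 0.19 after division by the local median ratio, 0.23 by the ratio of upper quartiles and 0.93 with RPKM brought to a common sum. With a minimum RPKM of 5 it was 0.54. The number of genes past 2-fold, 2 as deposited, was 4 with a common sum, 5 at a fold limit of 1.5, 1 at a limit of 3 and 1 under the criteria of the study. The number with a ratio above 1, 9 as deposited, was 5 with upper quartiles. Shares of all rows were not counted at a common sum, at limits of 1.5 and 3 or with upper quartiles. These counts therefore cannot be set against the shares of all rows given above. The direction turned for *Notch1* with the median ratio (0.950) and upper quartiles (0.923), for *Notch3* with upper quartiles (0.991), and for *Jag1* with the median ratio (0.863), the local median (0.962) and upper quartiles (0.838). *Notch2*, whose interval included 1, was below 1 under these scalings too. *Jag2*, *Dll1*, *Dll4*, *Lfng*, *Hes1* and *Hey1* stayed above 1 under each scaling and pseudocount tried. The listed length in place of the transcript moved 0 of the interval limits across 1. Relative to each other and divided by the local medians, the lower limits fell to 0.903 for *Dll4* against *Dll1* and to 0.804 for *Mfng* against *Lfng*, and *Dll1* against *Jag2* reversed (lower limit 0.618). With a pseudocount of 1 the ratio of *Hey1* was 9.59 and that of *Dll4* 1.40. These local ratios and shares per kb of transcript were added after seeing the data, as were the counts by KEGG rows. No paired analysis was possible because there is a single pooled library of each tissue and no replicate number. Spread between animals is unknown, and genes with few Epi reads (*Dll4*, *Hey1*) have wide intervals.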

Other observations

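Other proteins reported to bind Notch included the gene with the widest difference of the pathway lists. *Nov*, which encodes a secreted matrix protein, stood at 78.33 RPKM in the CvP against 0.02 in the Epi, about 6379 and 2 reads, a ratio of 3917 (interval 869 to 25947). *Dner*, a transmembrane protein with EGF repeats, stood at 7.5 and 0. That is 254-fold higher in the CvP against a floor of 3 reads, and the lower limit of its interval was 206. *Dlk2*, a Delta-like protein that lacks the usual receptor-binding domain, stood at 12.47 and 8.96, a ratio of 1.39 (1.23 to 1.57). Of the 9 genes in this list 7 had a row and 3 reached an RPKM of 1, of which 2 were past 2-fold, against 28.2% of all rows. In these 2 (*Nov* and *Dner*) the Epi RPKM was under 1, so they entered the count through the CvP alone.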
